A study of Homo sapiens with 3 samples.

Results

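The transcripts compared here were coding RefSeq transcripts (identifiers that start with NM_) that were well covered in 2 samples of a human embryonic kidney line, one exposed to BDE-209 and one to its solvent DMSO. They were chosen by their own values in this pair, as those with at least 20 RPKM in both samples, where RPKM is a read number corrected for transcript length and for the mapped reads of the library. This rule kept 4670 of the 19612 NM_ transcripts listed in both samples, and of 25443 transcripts listed anywhere in the series. For 4607 of them the identifier matched a gene symbol, giving 3717 genes, of which 883 had more than 1 transcript among the 4670. The transcripts next to the threshold were PRIM2 (19.99 RPKM with BDE-209 and 20.17 with DMSO), UNC119B and MACF1 outside it, and TBL3 (20.01 and 22.37 RPKM), WDR33 and FAM171A1 inside it.

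The cells are named HEK 293 in the sample labels and HEK293T in the study, where the T marks a derivative that carries the SV40 large T antigen, a viral protein that binds p53 and RB. One culture was kept for 48 h with 1 µM BDE-209 and 1 mM DMSO, one for 48 h with 1 mM DMSO, and one in medium free of both as the negative control. The treatment entry of that sample can also be read as BDE-209 without DMSO, and the protocol, which states that both were absent, was followed here. Each condition had 1 library of polyA RNA, so no difference below has a replicate check and none can be assigned to the treatment. BDE-209, or decabromodiphenyl ether, is the fully brominated member of the polybrominated diphenyl ethers, a class of flame retardants whose structure resembles that of thyroid hormones. Cells commonly answer foreign chemicals through the aryl hydrocarbon receptor, the oxidative stress factor NRF2, the integrated stress response and the unfolded protein response, while heat shock factors answer damaged proteins. The genes of these pathways and of the large housekeeping machines (ribosome, proteasome, respiratory chain, cytoskeleton) were therefore followed as lists.

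Defining genes of the line were present in all libraries. Vimentin (VIM) was at 261 RPKM with BDE-209, 296 with DMSO and 299.1 in the negative control, and KRT18, NEFL, NEFM, INA and CDH2 also passed the threshold, while KRT8 stayed between 5.93 and 6.38 RPKM, LHX1 between 0.914 and 1.43 RPKM and PAX2 was not listed. Of 9 markers of blood, liver, endothelial and fibroblast cells, none passed the threshold, 8 were under 1 RPKM or not listed in every sample, and PTPRC, CD3E, HBB and DCN were not listed at all. The exception was COL1A1 at 4.44, 5.19 and 4.88 RPKM. The 9 together came to 5.61 RPKM with BDE-209, 5.94 with DMSO and 5.62 in the negative control.

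Depth was close to equal. The steps of the RPKM values gave scaling totals of 4676792, 4782043 and 4843622 reads for BDE-209, DMSO and the negative control, so 1 read on 1 kb of transcript was worth 0.214, 0.209 and 0.206 RPKM. The smallest whole numbers of reads that give these values ran from 13 to 25660 per transcript with BDE-209 (median 533) and from 11 to 24859 with DMSO (median 545). The totals are smaller than the uniquely mapped reads listed in the study, where BDE-209 is above DMSO and not below it, and the reason is not given in the sources used here, so all read numbers and intervals rest on the deposited scaling. The reads are lower bounds, and reads were counted for more than 1 isoform, since their sum over all transcripts was 121% of the total in both samples. An interval given with a ratio below is the 95% exact (Clopper-Pearson) interval of the log2 ratio given these reads. It covers counting error only and compares 2 libraries, not 2 conditions.

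The samples were nearly alike over these transcripts. The log2 ratio of BDE-209 to DMSO had a median of -0.01 and a standard deviation of 0.10 over the 4670 transcripts. Counting alone would give 0.10 at the recovered reads, which is an upper bound because these reads are lower bounds. The 25th and 75th percentiles were -0.07 and 0.05, the 1st and 99th were -0.29 and 0.25, and 83.4% of the transcripts lay within 10% of no change. The highest ratio was 1.36-fold and the lowest 0.685-fold. No transcript reached a 1.5-fold difference in either direction (0 higher, 0%, and 0 lower, 0%), and therefore none reached 2-fold. The study required 2-fold together with a NOISeq value and describes no RPKM minimum, so its gene calls can rest on transcripts left out here. On the deposited values none of the 4670 transcripts meets its fold limit. With a limit of 25%, the larger value over the smaller, 15 transcripts (0.321%) were higher with BDE-209 and 32 (0.685%) were lower. Without the RPKM minimum, a 1.5-fold difference was passed by 1739 of the 19612 transcripts (8.87%) upward and 1650 (8.41%) downward.

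The spread followed the reads. The reads are lower bounds, so the values for counting alone below are upper bounds. Among 108 transcripts with under 100 reads in the sample with fewer, the standard deviation of the log2 ratio was 0.19, against 0.25 for counting alone. It was 0.14 for 1087 transcripts with 100 to under 300 reads, where counting alone gave 0.14, and 0.09 for 2423 transcripts with 300 to under 1000 reads, where it also gave 0.09. It was 0.06 against 0.05 for 865 transcripts with 1000 to under 3000 reads, and 0.04 against 0.03 for 187 transcripts with 3000 or more. All but 2 of the 47 transcripts past the 25% limit had under 300 reads in one of the samples, and none had 1000 or more in both. The counting interval lay above no change for 159 transcripts (3.4%) of 129 genes and below it for 209 (4.48%) of 177 genes. These add up to 7.88%, where an interval of this kind leaves up to 5% outside by counting alone.

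**Figure D1:**
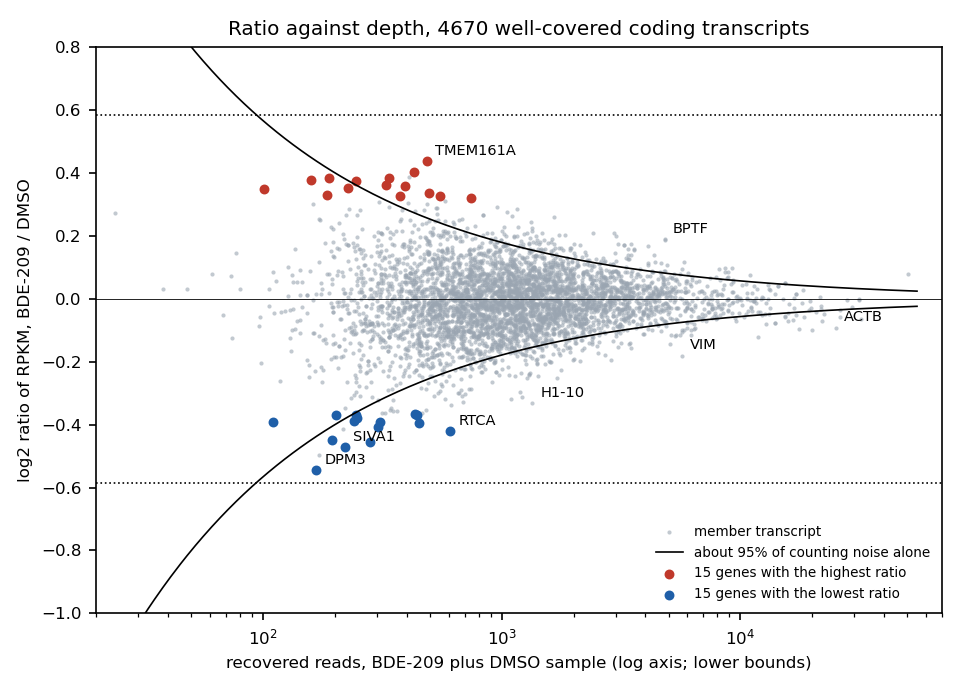
Log2 ratio of RPKM (BDE-209 over DMSO) against the recovered reads of both samples together (log axis) for the 4670 transcripts. Curves show about 95% of counting noise alone at these reads, which are lower bounds. Dotted lines mark a 1.5-fold difference, which no transcript reached. The 15 genes at each end lie mostly at low reads, while H1-10, BPTF and VIM lie outside the curves at higher reads.

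The 15 genes with the highest ratio spanned log2 ratios of 0.32 to 0.44. Their recovered reads, which are lower bounds, were few, 56 to 408 with BDE-209 and 45 to 334 with DMSO. The order of the genes is a description of the values that ranked them. TMEM161A, which encodes a multi-pass membrane protein, headed them at 33.0 RPKM with BDE-209, 24.3 with DMSO and 25.6 in the negative control (277, 209 and 223 reads; log2 ratio 0.44, interval 0.17 to 0.70). The gene lies on the minus strand of chromosome 19, at 19229978 to 19249322 of GRCh37. The transcription factor USF1, which binds E-box motifs, was at 28.3, 21.4 and 25.1 RPKM (log2 ratio 0.40, interval 0.12 to 0.69), and its second transcript was at 27.2, 20.8 and 24.8 RPKM. For both genes the BDE-209 sample was the highest of the 3.

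Some of these genes encode mitochondrial proteins and are described together only for order, since no list of such genes was counted over all members, and MTFP1 and TIMM17B, which are also mitochondrial, appear among the low genes below. NDUFS4, an accessory subunit of respiratory complex I, was at 33.5 RPKM with BDE-209, 25.7 with DMSO and 32.4 in the negative control (log2 ratio 0.38, interval -0.04 to 0.82). NDUFAB1, the mitochondrial acyl carrier protein that is also a complex I subunit, was at 72.6, 57.5 and 72.4 RPKM (log2 ratio 0.34, interval 0.08 to 0.60). In both, the negative control was close to the BDE-209 sample, and the DMSO sample was the low one. The ATP synthase subunit gene ATP5MF was at 46.3, 35.6 and 40.2 RPKM in its highest-ranking transcript (log2 ratio 0.38, interval -0.09 to 0.85). Its more abundant transcripts did not share this difference, since they were at 174 against 175 RPKM and 201 against 191 RPKM. CHCHD4, which drives the oxidative import of proteins into the intermembrane space, was at 32.4, 25.5 and 33.0 RPKM, so the negative control exceeded the BDE-209 sample. MTX2 of the outer membrane (log2 ratio 0.36), MRPS21 of the mitochondrial ribosome (0.33) and MTERF3, which acts in mitochondrial gene expression (0.38), were also among the 15.

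The other high genes act in varied processes. AP1S1, the small subunit of the AP-1 clathrin adaptor, was at 30.004, 23.4 and 26.1 RPKM (log2 ratio 0.36), and the sorting nexin SNX12 was at 34.0, 27.0 and 24.1 RPKM (0.33). SRR, the serine racemase, had the most recovered reads of the 15 and was at 35.2, 28.2 and 31.8 RPKM (log2 ratio 0.32, interval 0.11 to 0.53). VKORC1L1, a relative of the vitamin K epoxide reductase, was at 38.4, 30.6 and 35.8 RPKM (0.33). FRG1 (0.35) has related copies elsewhere in the genome, so unique alignment may have placed only part of its reads. For 10 of the 15 genes the interval lay above no change. The 16th gene, PPP2R5A, had a log2 ratio of 0.31, so the list has no gap at its end.

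The 15 genes with the lowest ratio spanned log2 ratios of -0.55 to -0.37. Their recovered reads, again lower bounds, were 47 to 257 with BDE-209 and 63 to 352 with DMSO. DPM3, which anchors dolichol-phosphate mannose synthase in the endoplasmic reticulum, was the lowest at 34.4 RPKM with BDE-209, 50.1 with DMSO and 39.1 in the negative control. It rested on 67, 100 and 79 reads (log2 ratio -0.55, interval -1.01 to -0.08), and DMSO was the sample that stood apart. It lies on the minus strand of chromosome 1, at 155112367 to 155113071 of GRCh37. SEC61G, the gamma subunit of the translocon through which proteins enter the endoplasmic reticulum, was at 36.1, 49.2 and 43.4 RPKM (log2 ratio -0.45, interval -0.88 to -0.02). YIPF2, a Golgi membrane protein, was at 26.4, 34.7 and 27.0 RPKM (log2 ratio -0.39), and here the negative control was next to the BDE-209 sample.

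SIVA1, a pro-apoptotic protein, was at 24.6, 34.1 and 31.9 RPKM (log2 ratio -0.47, interval -0.87 to -0.07). MTFP1, which promotes mitochondrial fission, was at 21.0, 28.7 and 26.5 RPKM (log2 ratio -0.46, interval -0.81 to -0.10). RTCA, the RNA 3'-terminal phosphate cyclase, had the most recovered reads of these 15 (257, 352 and 338) and was at 20.9, 27.9 and 26.5 RPKM (log2 ratio -0.42, interval -0.66 to -0.19). In these 3 genes the BDE-209 sample was the low one, and the negative control sat near DMSO. HOXC10, a homeobox transcription factor, showed the same order at 20.1, 26.0 and 25.3 RPKM (log2 ratio -0.37).

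Regulators of protein turnover and trafficking were among the rest. COPS9, a part of the COP9 signalosome, was at 48.3, 63.3 and 58.0 RPKM. PDE6D, which carries prenylated proteins, was at 26.4, 34.7 and 28.3 RPKM. VPS28 of the ESCRT-I complex had a log2 ratio of -0.37, and SSNA1, a microtubule-binding protein, -0.39. PLEKHJ1 (22.7, 30.1 and 18.5 RPKM) had the negative control below both samples, and BRI3 (28.0, 36.4 and 36.7 RPKM) had it above both. SURF2 was at 22.04, 28.49 and 26.42 RPKM. For 12 of the 15 genes the interval lay below no change, and the gene after them, IFT25, had a log2 ratio of -0.36.

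The negative control was used only to place these genes. Among the high genes it lay between both samples for 13, nearer to BDE-209 in 8 and nearer to DMSO in 5. Among the low genes it also lay between them for 13, nearer to BDE-209 in 6 and nearer to DMSO in 7. Over all 4670 transcripts it lay between them for 27.7%, above both for 35.8% and below both for 36.5%. Genes ranked by the difference of the pair have both samples far apart, which by itself leaves more room between them, so the comparison of these shares carries no test.

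**Figure D2:**
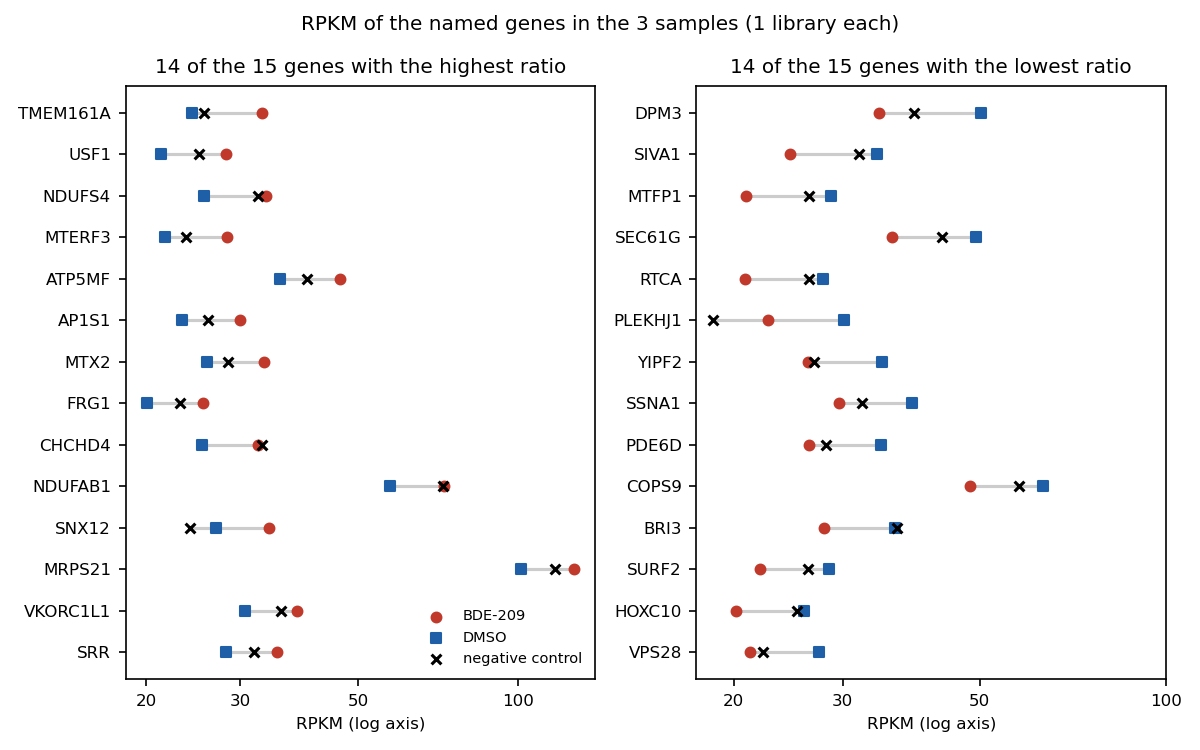
RPKM (log axis) of 14 of the 15 genes with the highest and 14 of the 15 with the lowest ratio, 1 library per condition. Circles mark BDE-209, squares DMSO and crosses the negative control, and the crosses lie between the other symbols for 12 genes on each side.

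Since the ranking by ratio favours transcripts with few reads, the genes were also ranked by the bound of the counting interval nearest to no change, 10 at each end, an order chosen after the values were seen. It brought up smaller differences in more deeply read genes. At the high end TMEM161A, USF1 and SRR stayed, and one transcript, NM_032560, had no matched symbol (49.3 RPKM with BDE-209 and 41.1 with DMSO). BPTF, the largest subunit of the NURF chromatin remodelling complex, had 2542, 2280 and 2317 reads and stood at 49.8, 43.7 and 43.8 RPKM (log2 ratio 0.19, interval 0.11 to 0.27). Here DMSO and the negative control were nearly equal and the BDE-209 sample was the high one. PNISR, an SR-related protein, was at 107, 92.2 and 89.4 RPKM (0.21), CWC22, which loads the exon junction complex, at 37.2, 30.7 and 32.6 RPKM (0.27), and SRSF6 at 72.9, 63.0 and 75.3 RPKM (0.21). PLPP6, a lipid phosphatase, was at 44.6, 36.6 and 36.2 RPKM (0.28) and JOSD1, a deubiquitinase, at 32.2, 26.4 and 31.0 RPKM (0.29).

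At the low end, RTCA, YIPF2 and MTFP1 stayed and histone genes came up. H1-10, a replication-independent linker histone, was at 82.2 RPKM with BDE-209, 103 with DMSO and 99.6 in the negative control (586, 754 and 735 reads; log2 ratio -0.33, interval -0.49 to -0.17). H2AX, the histone variant that is phosphorylated at DNA breaks, was at 69.0, 85.7 and 82.5 RPKM (533, 677 and 660 reads; log2 ratio -0.31, interval -0.48 to -0.15). In both, DMSO and the negative control were close to each other and the BDE-209 sample was the low one. PPDPF was at 129, 161 and 150 RPKM (-0.32), and TIMM17B, a channel component of the inner mitochondrial membrane translocase, at 57.4, 72.1 and 64.5 RPKM (-0.33). SALL2, a zinc finger transcription factor, was at 23.0, 28.3 and 28.4 RPKM (-0.30), and APPL1, an endosomal adaptor, at 27.0, 32.2 and 30.01 RPKM (-0.25). VIM had the most reads of these 10 (2626, 3043 and 3116; log2 ratio -0.18, interval -0.26 to -0.10). For 7 of these 10 genes the negative control lay between both samples and nearer to DMSO, against 4 of the 10 at the high end. These genes too were picked by the difference of the pair, so the counts carry no test.

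The ends also differed in base composition, which the rule did not use. Transcripts of the same symbol and of a length within 10% were found in GENCODE 44 for 3805 of the 4670 members (81.5%). The median GC content was 45.2% for 8 of the 10 genes at the high end of the ranking by interval bound, 60.1% for 9 of the 10 at the low end, and 47.6% over the 3805 transcripts. For the 15 genes at each end of the ranking by ratio it was 49.3% (12 genes) and 61.0% (13 genes). To show what these values look like, 120 bases from the middle of the coding sequence are given for the 2 genes with the lowest GC content at the high end and the 2 with the highest at the low end, 5' to 3' on the transcript, from GENCODE 44 on GRCh37, with G and C in capitals.
CWC22: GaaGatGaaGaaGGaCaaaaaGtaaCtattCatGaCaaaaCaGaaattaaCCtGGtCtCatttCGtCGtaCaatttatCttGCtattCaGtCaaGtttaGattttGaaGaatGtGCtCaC
PNISR: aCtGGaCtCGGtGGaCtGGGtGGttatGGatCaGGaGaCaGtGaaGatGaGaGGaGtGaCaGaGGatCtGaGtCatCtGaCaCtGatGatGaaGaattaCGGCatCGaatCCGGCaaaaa
H1-10: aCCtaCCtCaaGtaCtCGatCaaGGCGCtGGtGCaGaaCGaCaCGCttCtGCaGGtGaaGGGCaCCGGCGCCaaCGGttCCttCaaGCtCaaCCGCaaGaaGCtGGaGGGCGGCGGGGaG
PPDPF: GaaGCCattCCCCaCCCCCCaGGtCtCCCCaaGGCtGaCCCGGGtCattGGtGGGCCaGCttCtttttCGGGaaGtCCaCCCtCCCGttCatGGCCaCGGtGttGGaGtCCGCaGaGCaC
G and C made up 33.3% of the stretch in CWC22 and 48.3% in PNISR, both higher with BDE-209, and 61.7% in H1-10 and 63.3% in PPDPF, both lower with BDE-209. Over the whole transcripts the GC content was 40.3%, 41.0%, 68.6% and 67.7%. The stretch from PNISR was thus richer in G and C than its transcript. These genes were picked by GC content, in opposite directions at both ends, so their contrast follows from the choice. Some genes of the same ranking went the other way, such as TMEM161A at the high end (63.4%) and RTCA (43.1%) and APPL1 (37.9%) at the low end. CWC22 lies at chr2:180809603-180872024, PNISR at chr6:99845505-99873207 and H1-10 at chr3:129033614-129035129, all on the minus strand, and PPDPF at chr20:62152118-62153559 on the plus strand.

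Over the 3805 transcripts the ratio went down with GC content. With the transcripts in 5 equal bins of GC content, the median log2 ratio was 0.01 in the bin of 31.0 to 40.9% GC, 0.01 up to 45.1%, -0.01 up to 50.9%, -0.03 up to 57.0% and -0.05 in the bin up to 74.3%. Spearman's rho was -0.23 across transcripts, which share 2 libraries and are not independent. The interval lay above no change for 43 transcripts and below it for 20 in the bin with the least GC, and for 6 and 76 in the bin with the most. Ratios also went up with length, from a median of -0.03 in the bin of 295 to 1360 bases to 0.01 in the bin of 4489 to 20635 bases (rho 0.16). With each ratio taken relative to the median of its GC bin, 145 intervals lay above and 125 below no change, against 132 and 186 for the same transcripts before, and 13 and 21 transcripts were past the 25% limit, against 12 and 29. H1-10 was then at -0.28 (interval -0.44 to -0.13), H2AX at -0.27 (-0.43 to -0.10), VIM at -0.15 (-0.23 to -0.08), BPTF at 0.18 (0.10 to 0.27) and TMEM161A at 0.49 (0.22 to 0.75). Why the libraries differed along GC content was not tested.

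**Figure D3:**
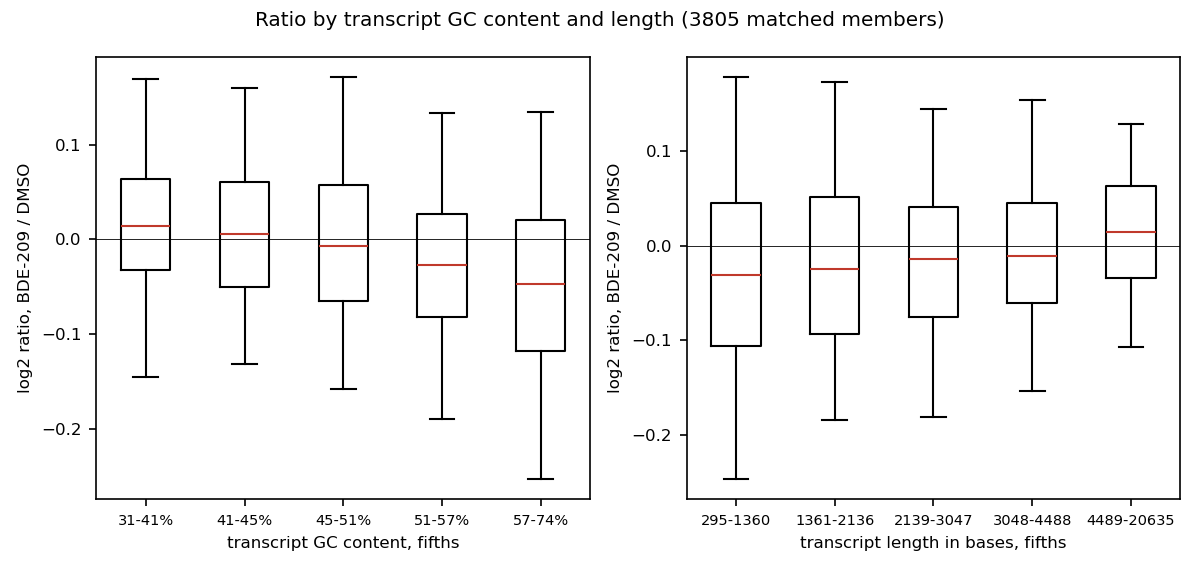
Log2 ratio of RPKM (BDE-209 over DMSO) of 3805 transcripts in 5 bins of GC content and of transcript length. Boxes span the 25th to the 75th percentile, inner lines mark the median and whiskers the 5th and 95th percentile; the medians go from 0.01 to -0.05 with GC content and from -0.03 to 0.01 with length.

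The medians of the gene lists moved little, and within the lists 4 transcripts passed the 25% limit. These were NDUFS4, ATP5MF and NDUFAB1 upward, all 3 from the 88 transcripts of the respiratory chain, and H1-10 downward. Over all members the shares past this limit were 0.321% upward and 0.685% downward. The list medians below are read against the median of -0.01 over all members. Counts of intervals are read against the shares of 3.4% above and 4.48% below no change. These shares are over members of all depths. Deeply read transcripts, such as many of the cytoskeleton and the ribosome, have narrower intervals, and the shares at their depth were not counted. A higher count in such a list is therefore not a result about the list. Several lists that lay low were also rich in GC.

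The cytoskeleton lay on the low side. Of 11 tubulin transcripts, the median log2 ratio was -0.10, the intervals of 3 lay below no change and none lay above. TUBA1B, an abundant alpha-tubulin, was at 1148 RPKM with BDE-209, 1231 with DMSO and 1204 in the negative control (log2 ratio -0.10, interval -0.14 to -0.06). TUBA1C was at 757, 823 and 821 RPKM, and TUBG1, the gamma-tubulin that nucleates microtubules, at 110, 123 and 124 RPKM. In all 3 the BDE-209 sample was the lowest. The 18 transcripts of 13 actin and intermediate filament genes had a median of -0.06, with 5 intervals (of 4 genes) below no change and 1 above. ACTB was at 1385, 1476 and 1525 RPKM (log2 ratio -0.09, interval -0.13 to -0.06), profilin PFN1 at 724, 773 and 809 RPKM, and tropomyosin TPM4 and VIM made up the others. The one above was the myosin light chain MYL12A, at 44.2, 36.3 and 43.4 RPKM. Median GC content was 57.9% for the tubulins and 55.3% for the actin list, and relative to their GC bins the medians were -0.07 and -0.04, over 10 and 16 matched transcripts. For the same matched transcripts the medians before were -0.10 and -0.07.

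Histones passed the threshold mainly as replacement variants, whose mRNAs carry a polyA tail. All 8 such genes above the threshold gave a median of -0.06, with H1-10 and H2AX below no change and H3-3A (611, 577 and 624 RPKM, log2 ratio 0.08, interval 0.01 to 0.16) above it. Of 70 genes of the histone clusters, whose mRNAs mostly end in a stem-loop without a tail, 41 were under 1 RPKM in every sample or not listed, and H2BC12 alone passed the threshold (78.0, 87.0 and 78.0 RPKM, interval -0.38 to 0.07).

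The 63 transcripts of large ribosomal subunit proteins came from 49 genes and had a median of -0.04. Below no change lay 15 intervals, of 11 genes, and above it 1, of RPL7. Transcripts of the same gene share reads and are not separate observations. RPL36, at 911 RPKM with BDE-209, 1007 with DMSO and 942 in the negative control, had a log2 ratio of -0.14 (interval -0.22 to -0.06), and the RPLP0 transcript with more reads, a stalk protein, was at 1290, 1345 and 1323 RPKM. The 35 transcripts of the small subunit had a median of -0.01, with 5 below and none above, and RPS2, at 4731, 4972 and 4793 RPKM, was one of the 5. The 18 transcripts of translation factors had a median of -0.04 with 4 below, among them the elongation factors EEF2 (1354, 1415 and 1315 RPKM) and EEF1A1 (2129, 2185 and 2125 RPKM). These differences were each under 25%, and the deep coverage makes their intervals narrow. Relative to GC bins, 7 of the 50 matched large-subunit transcripts lay below and 1 above, against 15 and none for the same transcripts before. None of the 28 matched transcripts of the small subunit lay on either side, against 3 below and none above before. Many ribosomal genes have processed pseudogenes, so that unique alignment may have dropped part of their reads. RPS2 was also among the 5 transcripts with the largest RPKM, as were NM_001190470 (5296, 5018 and 5182 RPKM, log2 ratio 0.08, interval 0.05 to 0.10) and NM_001190702, which had no matched symbol.

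**Figure D4:**
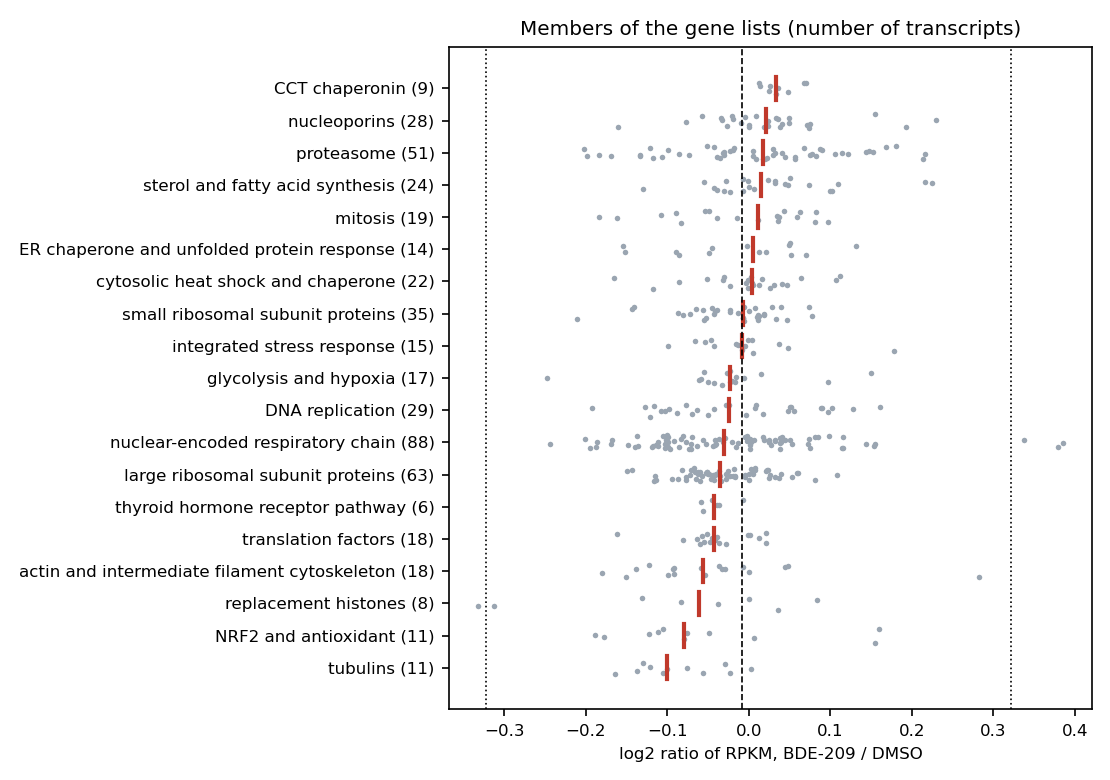
Log2 ratio of RPKM (BDE-209 over DMSO) of each member transcript in 19 gene lists, with the number of transcripts in brackets. Vertical bars mark each list's median, the dashed line the median of all 4670 transcripts and the dotted lines a 25% difference (larger over smaller), which only NDUFS4, ATP5MF, NDUFAB1 and H1-10 passed.

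The respiratory chain was spread around no change. Its 88 nuclear-encoded transcripts had a median of -0.03 and a range of -0.24 to 0.38, and 1 interval lay on each side, that of NDUFAB1 above and that of COX6A1 (287, 330 and 303 RPKM, interval -0.35 to -0.06) below. Other complex I subunits than NDUFS4 and NDUFAB1 lay on both sides, such as NDUFV2 (69.1, 77.7 and 76.0 RPKM, log2 ratio -0.17) and NDUFS3 (70.7, 63.5 and 67.4 RPKM, 0.15). In glycolysis (17 transcripts, median -0.02), GAPDH at 2064, 2150 and 2124 RPKM (interval -0.09 to -0.02) and ENO1 at 880, 914 and 970 RPKM (interval -0.10 to -0.01) lay below no change. Neither did so relative to its GC bin, where none of the 15 matched glycolysis transcripts lay on either side.

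Chaperones and the protein quality machinery lay near or slightly above the median of all members. The 9 transcripts (6 genes) of the CCT chaperonin, which folds actin and tubulin, were each above it, from 0.01 to 0.07. Their median was 0.03, but no interval excluded no change. CCT8, for example, was at 231, 220 and 233 RPKM. Proteasome transcripts (51) had a median of 0.02 with 2 intervals below no change, both of the inhibitor PSMF1. Heat shock and cytosolic chaperone transcripts (22) had a median near 0 (0.0034), with HSPA4 (160, 148 and 161 RPKM) and DNAJA1 (203, 187 and 220 RPKM) above no change. Those of the endoplasmic reticulum chaperones and unfolded protein response (14) had a median of 0.01. Both transcripts of XBP1, a factor of that response, lay below no change (79.3, 88.2 and 86.8 RPKM in the first) and both of the lectin chaperone CANX lay above it (335, 324 and 332 RPKM in the first). None of the 13 matched transcripts of this list, those of XBP1 and CANX included, lay on either side relative to its GC bin.

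Nuclear pore transcripts (28) had a median of 0.02. SEH1L (25.2, 21.5 and 22.6 RPKM, log2 ratio 0.23, interval 0.02 to 0.44) and TPR (123, 117 and 113 RPKM, 0.07) lay above no change, and NUP43 (44.6, 49.9 and 50.8 RPKM, -0.16) below it. Among mitosis genes (19 transcripts, median 0.01), the kinetochore gene CENPF was above at 98.1, 91.7 and 89.7 RPKM (interval 0.04 to 0.16). Among DNA replication genes (29 transcripts, median -0.02), the polymerase subunit POLA1 was above at 39.8, 35.6 and 35.9 RPKM (interval 0.03 to 0.29). In sterol and fatty acid synthesis (24 transcripts, median 0.02), both transcripts of HMGCS1, the cholesterol pathway's HMG-CoA synthase, lay above no change (44.1, 37.7 and 46.0 RPKM in one, log2 ratio 0.23). SQLE, the squalene epoxidase of the same pathway, lay below it (80.9, 88.5 and 86.8 RPKM, -0.13). The negative control was above BDE-209 for HMGCS1, so that the DMSO sample was the low one there.

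Of 11 aryl hydrocarbon receptor pathway genes, 1 passed the threshold, with an interval on both sides of no change, and the receptor's target CYP1A1 had 4, 3 and 7 reads. The 11 NRF2 and antioxidant transcripts had a median of -0.08 and a median GC content of 58.4%, with the ferritin light chain FTL (302, 342 and 307 RPKM, log2 ratio -0.18, interval -0.29 to -0.07) and TALDO1 (99.9, 114 and 106 RPKM, -0.19) below no change. In both, the negative control lay nearer to BDE-209 than to DMSO. The NRF2 target NQO1 was at 0.575, 0.402 and 0.476 RPKM, and of the metallothioneins only MT2A (26.2, 25.1 and 20.4 RPKM) passed the threshold. The integrated stress response (15 transcripts) had a median of -0.01, with SESN2 (50.2, 44.4 and 38.4 RPKM, interval 0.03 to 0.32) above no change and PHGDH (216, 231 and 206 RPKM, interval -0.19 to -0.01) below it. Relative to GC bins, 1 of its 11 matched transcripts lay above no change and none below. Of 10 matched NRF2 and antioxidant transcripts, 2 still lay below.

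The thyroid hormone receptor THRA was at 2.23, 2.18 and 2.41 RPKM and THRB under 0.1 RPKM, so neither entered. The 6 member transcripts of that list, among them those of the corepressor NCOR1, MED1 and THRAP3, ranged from -0.06 to -0.01 with no interval excluding no change. MDM2 was the only member among 15 p53 target and apoptosis genes (34.91, 35.02 and 38.64 RPKM, interval -0.12 to 0.11). Of 16 immediate early genes, JUN (91.1, 94.0 and 88.8 RPKM), MYC (88.5, 91.9 and 83.7 RPKM) and JUND entered. JUND, a subunit of the AP-1 transcription factor, was at 25.9, 32.1 and 30.9 RPKM (log2 ratio -0.31, interval -0.56 to -0.05).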

How the data were processed

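The libraries were made from polyA RNA, 1 per condition, and read from a single end over 49 bases. SOAPaligner 2.21 placed the reads on hg19 with up to 2 mismatches, and the authors used the reads with a unique position. Their deposited lists give an RPKM value for each RefSeq transcript with a read, to 6 significant digits. How reads shared by isoforms were counted is not given in the sources used here.

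Scaling totals were recovered from the steps of the deposited values, and reads as the smallest whole numbers, for lengths of 49 bases or more, that give all 3 values. The steps were tested on simulated data. Log2 ratios used no pseudocount. Symbols came from a RefSeq gene table of GRCh38.p14, used for names only. GC content and positions came from GENCODE 44 on GRCh37. Genes were named as the 15 with the highest and 15 with the lowest ratio, 1 transcript per gene, and the 5 transcripts with the largest RPKM; other genes are members of the lists, or were chosen after their values were seen. A few of these genes are not reported here. Members and lists were chosen with earlier results of these data known. With 1 library per condition no test was run. Alternatives were other RPKM and read minimums, 1 transcript per gene, summed transcripts, log2(RPKM + 1), a median-of-ratios size factor, other folds and a centring by GC content. Python 3.11.15, numpy 2.4.6, scipy 1.17.1 and pandas 2.3.3 were used.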

Additional observations from a re-analysis of the deposited data

How the results depend on the processing

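With 1 library per condition, no value here has a replicate check, and the depth limits what can be seen to differences larger than counting noise. The count of transcripts past 1.5-fold depended on the RPKM minimum. With a minimum of 10 RPKM, 7523 transcripts remained and 2 were higher and 6 lower with BDE-209; with 50 RPKM, 1786 remained and 172 counting intervals excluded no change, against 368. With no minimum there were 19612 transcripts, 1739 higher and 1650 lower at 1.5-fold, and 918 such intervals. Back at the minimum of 20 RPKM, 15 were higher and 32 lower at a limit of 25%, and none reached 2-fold. The median log2 ratio lay between -0.0131 and 0.0115 under the other RPKM and read minimums, with 1 transcript per gene and as log2(RPKM + 1). A median-of-ratios size factor turned the split of intervals from 159 above and 209 below no change to 191 above and 171 below, and that at 25% to 16 and 29. All 30 genes at the ends kept their direction with transcripts summed, where ATP5MF had the smallest difference (0.06). For many of the 30, such as TMEM161A and SRR, the sum held 1 transcript, so that it could not change the ratio. The 30 also kept their direction under log2(RPKM + 1), which cannot change a direction, and under the size factor. So did the 25 with a GC value relative to their GC bin, an alternative added after seeing the data. The size factor and the GC bins shift ratios by far less than the smallest of the 30 (0.32), so neither is a check. No paired analysis was possible because each condition had 1 library.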
